A study of Mus musculus with 27 samples.

Results

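The genes described here encode the chaperones of the endoplasmic reticulum, the machinery that removes misfolded proteins from it, and the sensors and transcription factors of the unfolded protein response. They were chosen as a list of 34 gene symbols. On the array, 32 of the 34 had a transcript cluster (the probes that measure one transcript) annotated to a single symbol, and where a gene had more than 1 such cluster, the brightest on average was taken. Pdia4, a protein disulfide isomerase, shares its only cluster with Mir704, and Ddit3, which encodes the transcription factor CHOP, shares its only cluster with Mars1, so both were not analysed here. Of the 32, Derl1 varied too little over the arrays to be tested (interquartile range 0.0908 on the log2 scale, below the minimum of 0.1), which left 31 members among the 13993 genes tested of 18820 genes measured.

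Liver RNA came from 27 male C57BL/6J mice aged 28 months, 1 array per mouse. All diets began at 9 weeks of age. The 8 control (C) mice ate the AIN-93W diet freely, the 5 calorie restriction (CR) mice received daily portions with 30% less energy than the C mice ate, and the 7 medium-fat (MF) mice freely ate a diet with 25% of its energy as fat. The 7 diet switch (CR-MF) mice had been restricted in the same way until 24 months of age and then ate the MF diet for the last 4 months. The restricted portions were of a version of AIN-93W with vitamins and minerals at higher concentration. All mice were fasted, given an oral dose of solvent and fasted again before sacrifice. The CR mice alone were given part of their daily portion shortly before the first fast, so the diet and this last meal cannot be told apart in any comparison with CR.

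Proteins that a cell secretes or places in its membranes fold inside the endoplasmic reticulum with the help of chaperones such as BiP, lectin chaperones that hold glycoproteins, and isomerases that form disulfide bonds. Proteins that fail to fold are moved back to the cytosol through a channel complex and destroyed, a process called ER-associated degradation. When unfolded proteins accumulate, the sensors IRE1, ATF6 and PERK raise the transcription of chaperone and degradation genes, in part through promoter elements named ERSE. The hepatocyte, which secretes most plasma proteins, relies heavily on this machinery.

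The promoters of the members are shown first because an element of ER chaperone promoters recurred among them, though most members lacked it. RefSeq promoter windows (assembly GRCm38.p6, 250 bases before to 50 after the start) were at hand for 28 of the 34 members. The ERSE, searched on both strands as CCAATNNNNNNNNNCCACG, was present in 9 of these 28 (32.1%): Hspa5, Hsp90b1, Dnajc3, Creld2, Calr, Canx, Pdia6, Derl3 and Syvn1. Over all 27025 genes with a window, 37 (0.137%) held it, and 39 of 32851 windows (0.119%). The element was originally defined in promoters of ER chaperones, so its presence here is a description of the list and not a result about diet. Shown are the last 160 bases before the start for 4 members that differed between diets, of which Derl3, Pdia6 and Dnajc3 held the element and Sdf2l1 did not, and for Hspa5, which held it and did not pass the test in any comparison. Capitals mark the ERSE, in Derl3 on the opposite strand.
Derl3 (chr10:75893238-75893397, plus strand): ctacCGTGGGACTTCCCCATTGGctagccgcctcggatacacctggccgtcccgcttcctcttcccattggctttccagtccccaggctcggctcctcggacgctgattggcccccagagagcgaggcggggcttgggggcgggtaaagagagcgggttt
Pdia6 (chr12:17266429-17266588, plus strand): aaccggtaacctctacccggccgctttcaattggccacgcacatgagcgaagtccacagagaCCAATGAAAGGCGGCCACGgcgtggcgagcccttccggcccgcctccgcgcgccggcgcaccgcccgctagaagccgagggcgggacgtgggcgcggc
Dnajc3 (chr14:118937772-118937931, plus strand): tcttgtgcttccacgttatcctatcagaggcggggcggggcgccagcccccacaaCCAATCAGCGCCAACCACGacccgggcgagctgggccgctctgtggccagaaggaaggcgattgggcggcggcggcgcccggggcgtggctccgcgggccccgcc
Hspa5 (chr2:34771930-34772089, plus strand): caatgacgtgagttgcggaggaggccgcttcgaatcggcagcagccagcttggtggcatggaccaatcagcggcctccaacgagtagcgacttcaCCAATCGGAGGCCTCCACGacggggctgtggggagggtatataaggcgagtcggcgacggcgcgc
Sdf2l1 (chr16:17132384-17132543, minus strand): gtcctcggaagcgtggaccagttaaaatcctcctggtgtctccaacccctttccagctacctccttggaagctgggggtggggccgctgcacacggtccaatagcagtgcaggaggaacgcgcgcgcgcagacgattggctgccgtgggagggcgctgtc

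The related ERSE-II, ATTGGNCCACG, was found in Dnajb11 and Herpud1 (7.14% of the 28 members, against 0.0444% of all genes). An element read by ATF4 and C/EBP factors, TGATGNAA, was found in Herpud1, Trib3 and Chac1 (10.7% against 4.51% of all genes), and no match of it overlapped a match of either ERSE form. These matches cover exact letters in the window alone, so a missing match says nothing about a factor. No window was at hand for Hyou1.

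The first comparison asked how these genes differed between livers of lifelong MF mice and lifelong CR mice. Levels are log2 intensities normalised by RMA, so a difference of 1 is a 2-fold difference, and a difference was called when its adjusted p-value from limma was below 0.05. Of the 31 members tested, 4 were lower in MF and none was higher: Derl3, Hyou1, Pdia6 and Dnajc3. Over all genes, 5.42% were called in this comparison and 2.62% were called as lower in MF. At an unadjusted p below 0.05 there were 9 members, all lower in MF, against 23.7% of all genes. The difference was below 0 for 24 of the 31 members and for 51.4% of all genes, and the median difference was −0.13 over the members and −0.01 over all genes.

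The second comparison set CR against C mice, who ate AIN-93W freely. The CR version of this diet was richer in vitamins and minerals, so the amount and the formulation cannot be told apart here. Here 5 members were higher in CR and none was lower: Derl3, Sdf2l1, Hyou1, Pdia6 and Dnajc3. The background was 1.57% of all genes called and 0.765% called as higher in CR. There were 13 members at an unadjusted p below 0.05, all higher in CR, against 19.8% of all genes. The difference was above 0 for 27 of the 31 members and for 53.9% of all genes, with a median of 0.15 over the members and 0.02 over all genes. Both comparisons use the same 5 CR arrays, so neither is independent of the other.

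**Figure D1:**
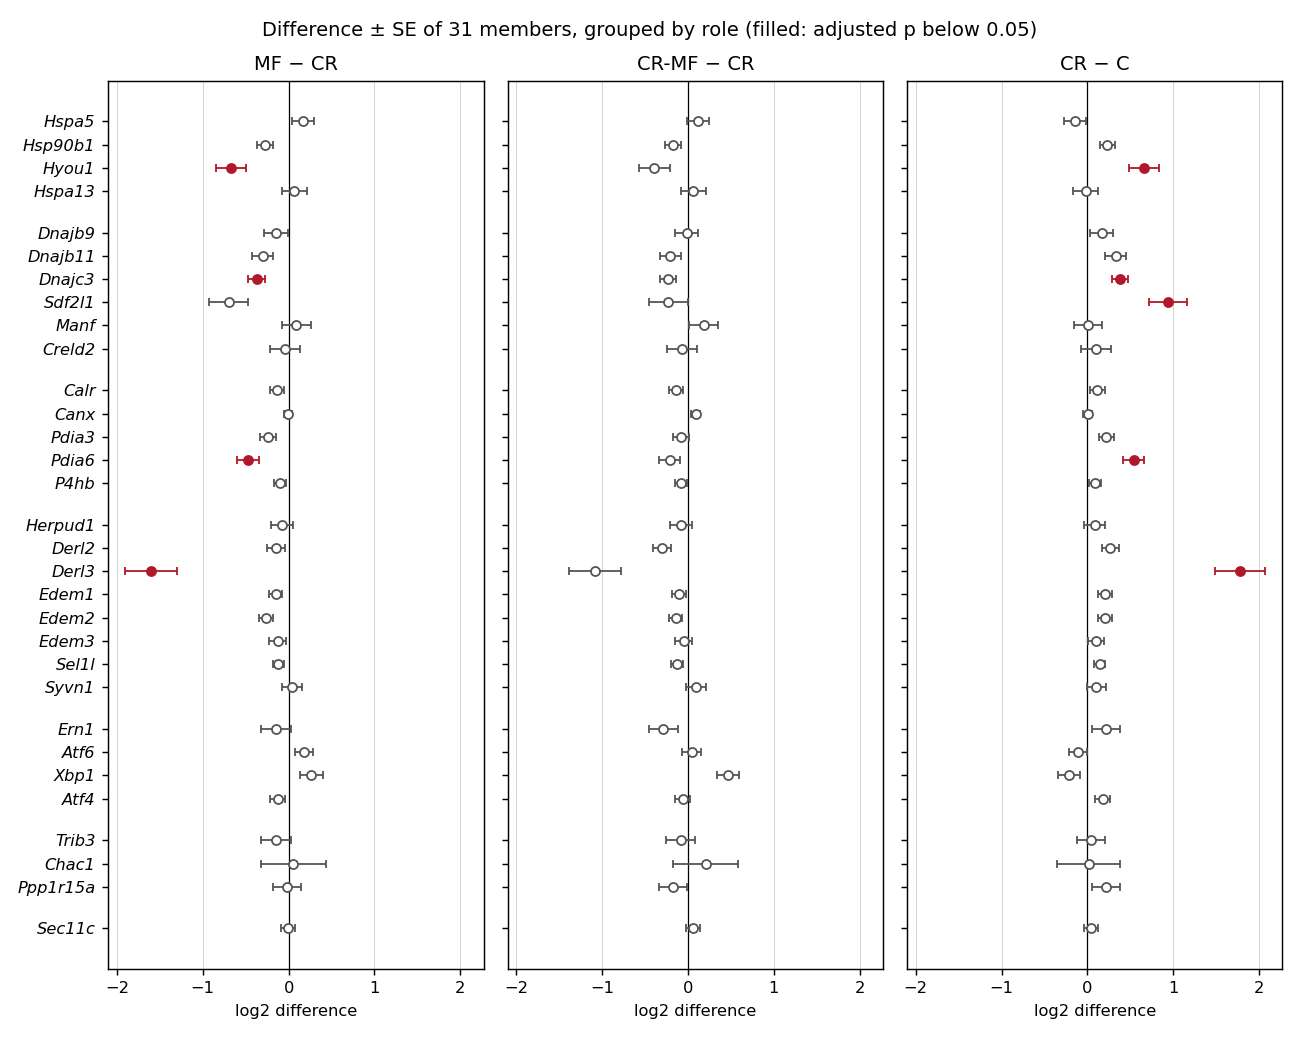
Log2 difference (horizontal axis) with its standard error for each of the 31 members (rows, ordered by role) for MF minus CR, CR-MF minus CR and CR minus C, filled where limma's adjusted p was below 0.05. Derl3 lies farthest from 0 in all panels, at −1.60, −1.08 and 1.78, while Hspa5 lies at 0.16, 0.12 and −0.14.

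Derl3 encodes derlin-3, a membrane protein of the degradation channel. Its level in the 5 CR mice was 7.06, 7.10, 7.58, 8.91 and 8.97. In the 8 C mice the lowest, median and highest levels were 5.73, 6.12 and 6.85, in the 7 MF mice 5.82, 6.40 and 6.73, and in the 7 CR-MF mice 6.08, 6.88 and 7.57. Every CR mouse was above every C and every MF mouse, and the CR-MF mice overlapped all other groups. How often groups separate in this way over all genes was not counted, here or for the genes below. The difference between MF and CR was −1.60 ± 0.30 (SE from limma, a 3.04-fold lower level, adjusted p = 0.00383), and that between CR and C was 1.78 ± 0.29 (3.44-fold, adjusted p = 0.00288). The SD of Derl3 was 0.95 in CR, 0.37 in C and 0.35 in MF. The limma fit assumes a common spread for all groups, so these SEs and p-values rest on that assumption. The call between CR and C held in each of 14 other settings and without any single mouse. The call between MF and CR was lost only on the arrays whose names begin with G150 (−1.35, limma adjusted p = 0.0640). None of these settings fitted a separate spread for each group.

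Sdf2l1 encodes a cofactor that works with BiP and its J-domain partners to keep unfolded proteins soluble. The CR mice were at 8.76, 8.82, 9.65, 9.70 and 9.79. The lowest, median and highest levels were 7.89, 8.44 and 8.77 in C, 8.87, 8.95 and 9.82 in CR-MF, and 7.60, 8.71 and 9.29 in MF. A single CR mouse (8.76) lay within the C range, and all CR-MF mice lay above all C mice. The level was higher in CR than in C by 0.94 ± 0.22 (1.92-fold, limma adjusted p = 0.0297). It differed by −0.70 ± 0.23 between MF and CR (adjusted p = 0.0707) and by 0.71 ± 0.20 between CR-MF and C (adjusted p = 0.147), neither of which passed.

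Hyou1 encodes a large HSP70 relative that exchanges nucleotide on BiP. Its level was 9.39, 9.42, 9.58, 9.71 and 9.99 in the CR mice, and its lowest, median and highest levels were 8.65, 8.82 and 9.56 in C, 8.95, 9.21 and 9.55 in CR-MF and 8.53, 8.90 and 9.80 in MF. The MF range overlapped the CR range through mouse C4_9 alone, at 9.80 where the next MF mouse was at 9.00, and the C range overlapped it through mouse A4_3. The level was lower in MF than in CR by −0.67 ± 0.18 (1.59-fold, limma adjusted p = 0.0284) and higher in CR than in C by 0.66 ± 0.17 (1.58-fold, adjusted p = 0.0491). The second call sits at the threshold and was lost without 11 of the 13 mice in turn, with adjusted p-values between 0.0305 and 0.0979 over these fits.

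Pdia6 encodes a protein disulfide isomerase. In the CR mice it was at 9.04, 9.16, 9.50, 9.66 and 9.82, against a lowest, median and highest level of 8.65, 8.91 and 9.21 in C, 8.89, 9.17 and 9.46 in CR-MF and 8.70, 8.92 and 9.20 in MF. The 3 highest CR mice lay above all other mice, and the other two lay within the ranges of C and MF. The difference was −0.47 ± 0.13 between MF and CR (1.39-fold lower, limma adjusted p = 0.0280) and 0.54 ± 0.12 between CR and C (1.45-fold higher, adjusted p = 0.0275).

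Dnajc3 encodes p58IPK, a J-domain partner of BiP that also restrains PERK. The CR mice were at 10.69, 10.76, 10.95, 10.98 and 11.01. The lowest, median and highest levels were 10.32, 10.52 and 10.61 in C, 10.47, 10.64 and 10.97 in CR-MF and 10.19, 10.55 and 10.84 in MF. All CR mice were above all C mice, while a single MF mouse, C4_9 at 10.84, reached into the CR range. The difference was −0.37 ± 0.09 between MF and CR (1.30-fold lower, limma adjusted p = 0.0227) and 0.38 ± 0.09 between CR and C (1.30-fold higher, adjusted p = 0.0333).

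The calls of Derl3 did not depend on any single mouse, but the others did. In MF against CR, Hyou1 lost its call without CR mice B4_3, B4_5 or B4_13 or MF mouse C4_1, Pdia6 without B4_5, B4_7, B4_13 or C4_11, and Dnajc3 without B4_7 or B4_13. In CR against C, Pdia6 lost its call without 4 of the 13 mice in turn (A4_17, B4_5, B4_7 and B4_13), Sdf2l1 without 6 (the same 4, A4_3 and A4_5) and Dnajc3 without 8, among them all 5 CR mice. The directions held in all these fits, with Pdia6 between 0.44 and 0.64, Sdf2l1 between 0.83 and 1.08 and Dnajc3 between 0.35 and 0.42.

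**Figure D2:**
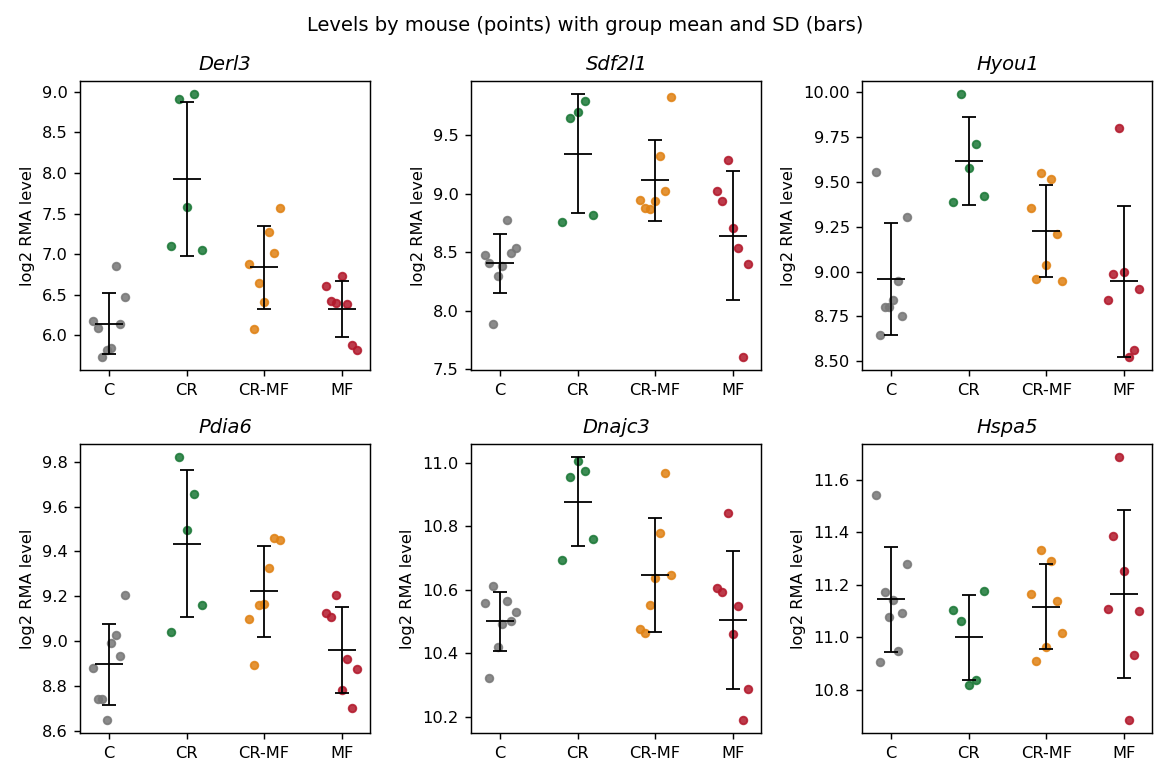
Log2 RMA level (vertical axis) of the 5 members called in either comparison and of Hspa5 in every mouse (points), with the mean and SD of each diet group (bars). For Derl3 all 5 CR mice, between 7.06 and 8.97, lie above every C and MF mouse, while for Hspa5 the CR mice lie between 10.82 and 11.18 within the range of the MF mice.

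The same 3 CR mice, B4_5, B4_7 and B4_13, were the highest CR mice for all 5 of these genes, and B4_1 and B4_3 were the lowest 2 for all 5. For Hspa5 the order was turned, with B4_1 at 11.10 and B4_3 at 11.18 above the 3 others. This split was seen after the values were examined and was not tested. The array names of B4_1, B4_5 and B4_7 begin with the code G150, that of B4_13 with G151 and that of B4_3 with G152, so the split did not follow this code.

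The other HSP70 and HSP90 chaperones did not pass. Hspa5, which encodes BiP, the central HSP70 of this compartment, was at 10.82, 10.84, 11.06, 11.10 and 11.18 in the CR mice and between 10.69 and 11.69 in the MF mice. It differed by 0.16 ± 0.13 between MF and CR (95% interval −0.10 to 0.42, limma adjusted p = 0.447) and by −0.14 ± 0.12 between CR and C (interval −0.40 to 0.11, adjusted p = 0.548), which places it on the other side of 0 from Hyou1 and Derl3 in both comparisons. Hsp90b1, the HSP90 of the compartment (GRP94), was −0.27 ± 0.09 in MF against CR (adjusted p = 0.0707) and 0.23 ± 0.09 in CR against C (adjusted p = 0.137). Hspa13, an HSP70 relative bound to the membrane, stood at 0.07 ± 0.14 and −0.02 ± 0.14 in the same order.

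Among the partners of BiP and secreted cofactors, Dnajb11 (ERdj3, which hands unfolded proteins to BiP) differed by −0.30 ± 0.12 between MF and CR and by 0.33 ± 0.12 between CR and C, with limma adjusted p-values of 0.137 and 0.127. Dnajb9 (ERdj4, a J-domain protein that targets misfolded proteins) stood at −0.15 ± 0.14 and 0.17 ± 0.13. Manf, a secreted factor released under ER stress, was at 0.09 ± 0.17 and 0.01 ± 0.17, and Creld2, a stress-induced ER protein, at −0.04 ± 0.18 and 0.10 ± 0.17. All 6 members of this role had a difference above 0 in CR against C, of which Sdf2l1 and Dnajc3 passed. All 6 were also above 0 in CR-MF against C and in MF against C, where none passed.

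The lectin chaperones showed small differences. Calreticulin (Calr) differed by −0.13 ± 0.09 between MF and CR and by 0.12 ± 0.08 between CR and C. Calnexin (Canx), its membrane-bound relative, was at −0.01 ± 0.05 and 0.00 ± 0.05, with 95% intervals of −0.11 to 0.10 and −0.10 to 0.11. Of the disulfide isomerases besides Pdia6, Pdia3 (ERp57, the partner of both lectins) was at −0.24 ± 0.09 and 0.22 ± 0.09 (limma adjusted p = 0.111 and 0.160), and P4hb (PDI itself) at −0.10 ± 0.07 and 0.09 ± 0.07. All 5 measured members of this role were below 0 in MF against CR and above 0 in CR against C, and Pdia6 alone passed. Against C, 4 of the 5 were above 0 in CR-MF and 1 of the 5 in MF.

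In ER-associated degradation, Derl3 stood apart from its relatives in size. Derl2 was at −0.15 ± 0.10 in MF against CR and 0.27 ± 0.10 in CR against C (limma adjusted p = 0.389 and 0.134). Derl1, which was not tested, had group means of 9.93 in C, 9.94 in CR, 9.95 in CR-MF and 9.91 in MF. The EDEM proteins trim mannose from misfolded glycoproteins to mark them for disposal. Edem2 was at −0.26 ± 0.08 between MF and CR with an adjusted p of 0.0542, outside the threshold, Edem1 at −0.15 ± 0.08 and Edem3 at −0.13 ± 0.10. Edem2 passed in 6 of 14 other settings, among them the intensity-based moderated test of the study's methods (adjusted p = 0.0499), with the lowest adjusted p, 0.0346, after each array was centred on its median.

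The channel's ubiquitin ligase and its adaptor did not pass. Syvn1 (HRD1, the ligase) was at 0.04 ± 0.12 in MF against CR and 0.11 ± 0.12 in CR against C, and Sel1l (its adaptor) at −0.12 ± 0.06 and 0.15 ± 0.06. Herpud1, which gathers the ligase complex, was at −0.08 ± 0.13 and 0.08 ± 0.13. All 8 tested members of this role were above 0 in CR against C, 5 of them at an unadjusted p below 0.05, and Derl3 alone passed adjustment. Against C, 7 of the 8 were above 0 in CR-MF and 6 of the 8 in MF.

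None of the 4 sensors and transcription factors passed in any comparison. Xbp1, whose spliced mRNA encodes the transcription factor downstream of IRE1, lay on the other side of 0 from most chaperones: it was at 0.26 ± 0.13 in MF against CR and −0.21 ± 0.13 in CR against C. Its largest difference was between CR-MF and CR, 0.47 ± 0.13 (limma adjusted p = 0.104). The probes were not shown to separate the spliced from the unspliced form, so these values are total Xbp1 RNA. Atf6, which encodes the sensor cut in the Golgi to release a transcription factor, was at 0.18 ± 0.11 and −0.11 ± 0.11, Ern1 (IRE1) at −0.15 ± 0.17 and 0.22 ± 0.17, and Atf4, translated when PERK is active, at −0.13 ± 0.09 and 0.18 ± 0.09.

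The genes of the CHOP arm did not pass either. Trib3, a pseudokinase induced by CHOP and ATF4, was at −0.15 ± 0.17 in MF against CR and 0.04 ± 0.17 in CR against C. Ppp1r15a (GADD34, which restores translation by directing a phosphatase to eIF2α) was at −0.02 ± 0.17 and 0.22 ± 0.16. Chac1, which degrades glutathione, was at 0.06 ± 0.38 and 0.01 ± 0.37, and its interval for MF against CR, −0.72 to 0.83, leaves differences of either sign unresolved. Sec11c, a catalytic subunit of the signal peptidase, was at −0.01 ± 0.08 and 0.04 ± 0.08.

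The diet switch was examined by setting CR-MF mice against each of the others. No member was called against CR, where 0.6% of all genes were called, against MF (1.44%) or against C (0.3%), by limma or by the intensity-based moderated test named in the study's methods. At an unadjusted p below 0.05, 5 members differed from CR (12.3% of all genes), 2 from MF (14.8%) and 4 from C (11.4%). The 5 genes called above were chosen by differences that rest on the same CR arrays, which favours a CR-MF mean below that of CR. For all 5 the CR-MF mean lay between those of CR and MF. For Derl3 it was 6.84 ± 0.51 (SD, n = 7), against 7.92 ± 0.95 (n = 5) in CR and 6.32 ± 0.35 (n = 7) in MF, and its difference from CR was −1.08 ± 0.30 (limma adjusted p = 0.0951) and from MF 0.52 ± 0.27 (adjusted p = 0.389).

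For the other 4 genes the differences of CR-MF from CR and from MF were smaller. Against CR they were −0.39 ± 0.18 for Hyou1, −0.23 ± 0.23 for Sdf2l1, −0.23 ± 0.09 for Dnajc3 and −0.21 ± 0.13 for Pdia6. Against MF they were 0.28 ± 0.16, 0.47 ± 0.21, 0.14 ± 0.09 and 0.26 ± 0.11 in the same order. None of these passed, so the data do not place the switched mice with either lifelong group. Over the 31 members the difference was below 0 for 22 against CR (50.2% of all genes), above 0 for 21 against MF (49.5%) and above 0 for 25 against C (51.4%), with medians of −0.08, 0.07 and 0.09.

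No member separated MF from C livers. No gene at all was called between them (0%), and no member reached an unadjusted p below 0.05, against 3.97% of all genes. The difference was above 0 for 22 of the 31 members (51.3% of all genes) with a median of 0.03, and for Derl3 it was 0.18 ± 0.27 (95% interval −0.37 to 0.72). A test for any difference among the 4 groups (limma's moderated F) called Derl3 (adjusted p = 0.00385), Pdia6 (0.0260), Sdf2l1 (0.0315) and Dnajc3 (0.0431), while Hyou1 was at 0.0584, and 3.62% of all genes were called.

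The members were also averaged within each mouse, after each gene was centred on its mean over the 27 arrays. The CR mice were at 0.05, 0.12, 0.14, 0.17 and 0.20, and between 17 and 23 of the 31 members were above their own mean in each. This count ran from 1 to 18 in the C mice, from 8 to 25 in the CR-MF mice and from 3 to 29 in the MF mice. The lowest, median and highest values were −0.22, −0.07 and 0.01 in C, −0.14, 0.08 and 0.21 in CR-MF and −0.27, −0.11 and 0.29 in MF. On this average all CR mice were above all C mice, while the MF mice spread over the whole range. The average is not scaled by gene, so the genes with the largest differences, Derl3 among them, weigh most. The separation of CR from C therefore partly restates the calls above. How often other lists of genes separate in this way was not counted.

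**Figure D3:**
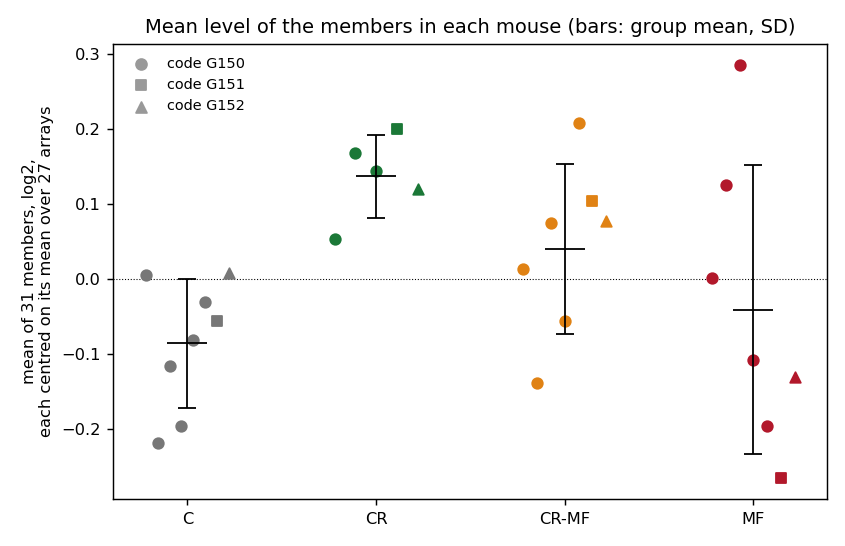
Mean of the 31 members in each mouse on the log2 scale, each gene centred on its mean over the 27 arrays (vertical axis), by diet group, with the symbol giving the code that opens the array's name and the bars the group mean and SD. The 5 CR mice lie between 0.05 and 0.20, the 8 C mice between −0.22 and 0.01, and the MF mice from −0.27 to 0.29.

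A single MF mouse, C4_9, had the highest average of all 27 mice at 0.29. It had 29 of the 31 members above their mean and was the highest of the 7 MF mice for 23 of the 32 measured members, though not for Derl3 (6.40, the MF median). Without it, 9 members instead of 4 were called lower in MF than in CR, the added ones being Hsp90b1 (−0.34), Dnajb11 (−0.39), Sdf2l1 (−0.81), Pdia3 (−0.30) and Edem2 (−0.29). Without CR mouse B4_13, by contrast, Derl3 alone remained called. The shares of all genes called in these fits are not given here, so the changes in count cannot be read as particular to the members. The lowest MF mouse, C4_15 at −0.27, had 3 of 31 members above their mean.

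The array names open with a code (G150, G151 or G152) and go on with a letter (F, G or H) and a number. The labels do not say what these parts of the name stand for, and both were set beside the result in case they mark how the arrays were run. Within code G150, with 5 MF, 3 CR, 5 CR-MF and 6 C arrays, the difference between MF and CR was −1.35 for Derl3, −0.62 for Hyou1, −0.42 for Pdia6 and −0.27 for Dnajc3. Within codes G151 and G152, with 1 array per group, it was −3.09 and −1.24 for Derl3, −1.15 and −0.52 for Hyou1, −0.95 and −0.28 for Pdia6 and −0.78 and −0.47 for Dnajc3. The direction was the same within every code for these genes. They were called on these same arrays, most of which carry G150, so this is not an independent check. Between CR and C all 5 called genes were above 0 within G150 and G151, while within G152 Pdia6 was at −0.05 and the others lay between 0.11 and 0.58.

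The letter followed the diets closely: all C arrays carried F, all MF arrays G, all CR-MF arrays H, and the CR arrays F (3) or G (2). The letter and the diet can therefore be told apart only in comparisons with CR. Within letter F the difference between CR and C was 1.72 for Derl3, 0.96 for Sdf2l1, 0.70 for Hyou1, 0.56 for Pdia6 and 0.38 for Dnajc3. Within letter G, the 2 CR arrays carry the codes G151 and G152 and 5 of the 7 MF arrays carry G150, so the code differed as well. There the difference between MF and CR was −1.69 for Derl3, −0.62 for Hyou1, −0.45 for Pdia6 and −0.36 for Dnajc3. These sizes were close to those over all arrays, which include the same arrays, so closeness was favoured. With the letter as a block, Derl3 kept both calls (limma adjusted p = 0.0466 for MF against CR and 0.0346 for CR against C) while the other genes lost theirs. For the switched mice, letter H and the diet switch cannot be told apart.

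Other genes of the same pathways were counted in 6 lists, of which 96 genes were tested. In MF against CR, 10 of them were lower (2.62% of all genes were) and 3 higher (2.8% of all genes), and in CR against C, 5 were higher (0.765% of all genes) and none was lower. The same shares of all genes apply to the counts of each list. Among 20 tested genes of translocation and signal peptide cleavage, 4 were lower in MF. The 3 with the smallest p were Spcs3, a signal peptidase subunit (−0.34 ± 0.07, limma adjusted p = 0.00824), Ssr4, of the translocon-associated complex (−0.22 ± 0.06, adjusted p = 0.0314), and Sec61a1, the channel itself (−0.25 ± 0.07, adjusted p = 0.0340). Spcs3 and Ssr4 were also higher in CR than in C, by 0.30 and 0.22.

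Of 16 genes of oxidative folding, 3 were lower in MF than in CR, and 3 were higher in CR than in C, again on the shared CR arrays. Ero1b, the oxidase that recharges disulfide isomerases, was at −0.55 ± 0.13 and 0.57 ± 0.13 (limma adjusted p = 0.0148 and 0.0248). Fkbp11, a prolyl isomerase, was at −0.48 ± 0.11 and 0.41 ± 0.11 (adjusted p = 0.0124 and 0.0462), and Txndc5, a disulfide isomerase, at −0.28 ± 0.07 and 0.28 ± 0.07 (adjusted p = 0.0207 and 0.0321). None of 13 further degradation genes passed in either comparison. Their 3 smallest p-values in MF against CR belonged to Selenos (−0.28 ± 0.09), Ube2j2 (−0.31 ± 0.10) and Os9 (−0.18 ± 0.06), with adjusted p-values of 0.0729, 0.0758 and 0.0796.

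**Figure D4:**
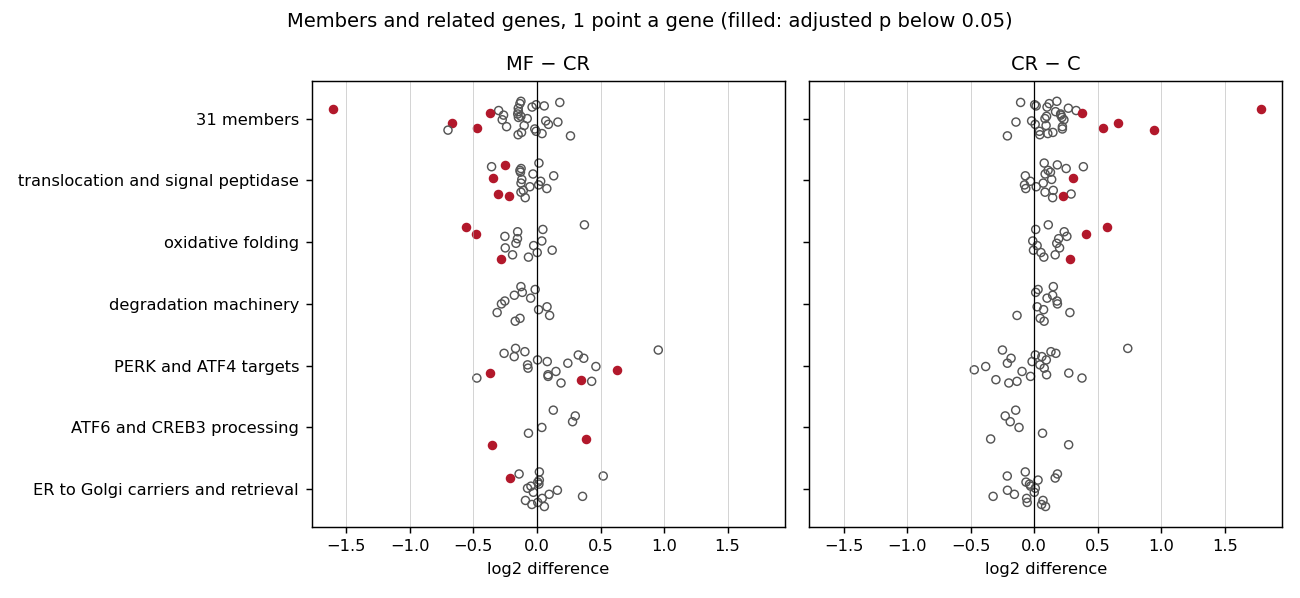
Log2 difference (horizontal axis) of the 31 members and of the 96 tested related genes, 1 point a gene, in rows by list, for MF minus CR and CR minus C, filled where limma's adjusted p was below 0.05. In the upper rows the filled points lie below 0 in MF minus CR and above 0 in CR minus C, while the PERK and ATF4 targets hold filled points on both sides of 0.

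The targets of PERK and ATF4 went both ways. Of 22 tested, Nupr1, a stress-induced chromatin protein (0.63 ± 0.16, limma adjusted p = 0.0230), and Slc3a2, a subunit of amino acid transporters (0.35 ± 0.10, adjusted p = 0.0473), were higher in MF than in CR, and Ppp1r15b, the constitutive relative of Ppp1r15a (−0.37 ± 0.10, adjusted p = 0.0359), was lower. The median difference of this list was 0.09, against −0.13 over the members. None passed in CR against C. In the switched mice, Vldlr, a lipoprotein receptor, was lower than in MF mice (−1.02 ± 0.17, adjusted p = 0.00320), as was Fgf21, a hormone that the liver secretes in fasting (−0.73 ± 0.16, adjusted p = 0.0197), against 0.893% of all genes called as lower. Fgf21 was also lower in CR-MF than in C (−0.70 ± 0.16, adjusted p = 0.0475, against 0.164% of all genes), and Vldlr did not pass there (−0.73 ± 0.17, adjusted p = 0.0544). These genes were named after their values were seen, and no other gene of the 6 lists was called in a comparison with CR-MF.

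Of 7 genes of ATF6 and CREB3 processing, the NF-Y subunits, which bind the CCAAT part of the ERSE, split: Nfya was higher in MF (0.38 ± 0.10, adjusted p = 0.0274) and Nfyb lower (−0.35 ± 0.11, adjusted p = 0.0490), and Creb3l1, a membrane-bound transcription factor, did not pass (0.30 ± 0.10, adjusted p = 0.0761).

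Among 18 genes of ER to Golgi carriers and retrieval, Lman1, a cargo receptor for glycoproteins, was lower in MF than in CR (−0.21 ± 0.06, limma adjusted p = 0.0284). Sec24d, a coat subunit (0.36 ± 0.11, adjusted p = 0.0603), and Kdelr3, a receptor that returns escaped chaperones (0.52 ± 0.20, adjusted p = 0.116), did not pass.

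Members with and without the ERSE were set side by side. Of the 9 tested members with the element, 3 were called in MF against CR, with a median difference of −0.13, and of the 17 tested members with a window and no element none was, with a median of −0.15. In CR against C the numbers were 3 of 9 (median 0.12) and 1 of 17 (median 0.18). These counts were not tested. Hspa5, Hsp90b1, Creld2, Calr, Canx and Syvn1 hold the element and were not called in any comparison.

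Bulk liver RNA cannot tell fewer cells of a type from less RNA per cell. Hepatocyte markers (9 of 10 measured, all above background) summed to between 15.99 and 16.24 on the log2 scale in all mice, as the tissue label states. Of these, 5 varied enough to be tested. Their median difference was −0.14 in MF against CR and 0.17 in CR against C, where the 31 tested members had −0.13 and 0.15. Over all 9 measured markers, tested or not, the medians were −0.05 and 0.02, where the 32 measured members had −0.13 and 0.13. Tat, an enzyme of tyrosine breakdown (−0.46, limma adjusted p = 0.0150), and Cps1, of the urea cycle (−0.29, adjusted p = 0.0287), were called lower in MF than in CR. Both were named after their values were seen. Of the 5 tested markers, 4 were below 0 and 1 above 0 in MF against CR. Among the 9 measured, Fgb and Alb were higher in MF, with means of 13.06 and 13.62 against 12.93 and 13.60 in CR. None of the 5 tested markers was called in CR against C.

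Plasma and pancreatic acinar cells are also rich in these chaperones. The summed B and plasma cell markers (9 of 10 measured) ranged from 8.58 to 8.88 in CR, 8.46 to 10.91 in C, 8.40 to 9.42 in CR-MF and 8.70 to 12.15 in MF. Their ranges overlapped among all groups. Of these genes, Tnfrsf17 and Irf4 had means of 3.99 and 4.31 over all mice, below the background level of 4.32. The means of Jchain were 6.89 in CR, 6.81 in C, 6.95 in CR-MF and 6.81 in MF, with single mice from 5.65 to 9.18. Tnfrsf17 was at 4.10 in CR, 3.97 in C and 3.86 in MF, and Mzb1 at 5.35, 5.36 and 5.62 in the same order. Means of Prdm1, Irf4 and Pou2af1 were 5.11, 3.85 and 5.05 in CR, 5.44, 4.57 and 5.52 in C, and 5.74, 4.37 and 5.92 in MF. Of the 8 tested markers of this list, 7 were lower in CR than in C and 1 was higher. Acinar markers (7 of 10 measured, 4 of them not above background) summed to between 6.89 and 7.37 with overlap among all groups. Macrophage marker sums were 12.49 to 12.98 in CR against 12.68 to 14.30 in C and 12.71 to 14.07 in MF.

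Markers of 4 other cell types had medians below 0 in CR against C. In that comparison the median difference was −0.78 over 10 macrophage, −0.61 over 8 T and NK cell, −0.60 over 8 B and plasma cell and −0.15 over 10 stellate cell markers, and none of these was called. At an unadjusted p below 0.05 (limma), 7, 2, 3 and 4 of these markers were lower in CR, in the same order, and none was higher. Over all genes, 19.8% reached that p in either direction. In MF against CR the medians were 0.42, 0.41, 0.66 and 0.28 in the same order, with 1 macrophage marker (C1qb) and 1 stellate marker (Pdgfrb) called higher and 7 of the 10 stellate markers higher at an unadjusted p below 0.05. Of the macrophage, T and NK cell, and B and plasma cell markers, 3, 2 and 3 were higher at that p, and 1 macrophage marker was lower. Over all genes, 23.7% reached it in either direction. Endothelial markers had medians of 0.01 and 0.02 in CR against C and in MF against CR, and cholangiocyte markers 0.05 and 0.20, with 1 of each called higher in MF (Vwf and Tspan8). The part of any cell type in the differences of the members was not tested.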

How the data were processed

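RNA of 27 livers was hybridised by the authors to Affymetrix Mouse Gene 1.1 ST arrays. The deposited table gives, per transcript cluster of the manufacturer, a log2 intensity that the authors computed with RMA, a method that compresses the differences of genes near background. Array medians ran from 5.38 to 5.48 and correlations between arrays from 0.975 to 0.991. A gene was tested if its intensity exceeded 20 (log2 4.32) on 5 arrays or more and its interquartile range exceeded 0.1. Group means were compared with limma 3.58.1 (R 4.3.3), with a variance trend over intensity in eBayes and 23 residual degrees of freedom over all 27 arrays, and p-values were adjusted by Benjamini-Hochberg over the 13993 genes tested. All 34 members and, from each related list, the 3 genes with the smallest p in MF against CR were named. The members and lists were chosen with earlier results of these data known. In simulated data of 13993 genes, 100 genes were changed at each size. Between MF and CR, a log2 change of 0.5 was recovered for 61% and a change of 1 for 98% of them, with 8 false calls. In the real comparison 758 genes were called, so recovery there can differ. Other normalisations, filters, variance models, blocks and left-out mice were tried. Promoters came from RefSeq (GRCm38.p6), and the number of arrays limits the precision.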

Additional observations from a re-analysis of the deposited data

Results flagged for a closer look

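Over the 32 measured members and 4 diet groups, in 15 cases the extreme mouse lay farther from its neighbour than the 95% limit of Dixon's test allows, where chance gives about 1 in 20. MF mouse C4_9 was the extreme in 6 of them, always as the highest: Hyou1 at 9.80, Hspa13 at 8.65, Canx at 11.94, P4hb at 11.92, Edem2 at 8.58 and Sel1l at 10.43. CR-MF mouse BC4_15 was the extreme in 4: it was highest for Dnajb9 at 10.29, Chac1 at 9.12 and Ppp1r15a at 6.75 and lowest for Ern1 at 7.75. Its Chac1 level stood above the next CR-MF mouse at 7.25. The others were single cases. Among C mice, A4_3 was highest for Creld2 at 9.52, A4_1 highest for Calr at 11.88 and A4_9 lowest for Canx at 11.71. CR mouse B4_5 was lowest for Ern1 at 8.41, and CR-MF mouse BC4_13 was lowest for Sec11c at 7.41.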

How the results depend on the processing

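No direction of a called difference was reversed in any setting. The number of members called in MF against CR was 4, and became 6 with array weights (Sdf2l1 and Edem2 added), 5 with each array centred on its median, with the stricter filter (intensity above 100) and with the intensity-based moderated test (Edem2 added), 0 on the arrays with code G150 alone, 2 with only the groups compared (Derl3 and Edem2, with Hyou1, Pdia6 and Dnajc3 lost) and 1 with the letter of the array name as a block, which was chosen after seeing the data. It ranged from 1 (without CR mouse B4_13) to 9 (without MF mouse C4_9) when each mouse was left out, with 2 without B4_5 or B4_7. In CR against C it was 5, and became 2 on G150 alone, 1 with the letter as a block and 4 with no filter, without the trend, with robust eBayes, with the code as a block or with all clusters of a gene averaged, and ranged from 1 (without any of C mouse A4_17 and CR mice B4_5, B4_7 and B4_13) to 5, with 2 without A4_5 and 3 without A4_3, B4_1 or B4_3. Weighting the arrays called 1 member, Derl3 (−1.16), in CR-MF against CR, and fitting only the groups compared called 1, Sdf2l1, in CR-MF against C. The moderated F called 4 members, 1 on G150 alone, and between 1 (without CR mice B4_5, B4_7 or B4_13) and 5 without each mouse, in settings also chosen after seeing the data. The shares of all genes called in each of these settings are not given here, so a change in the count cannot be read as particular to the members. Fits on fewer arrays have less power, and the other causes were not tested. Hyou1 in CR against C kept its call in 7 of 14 settings. Of 2118 values that were not called, 59 changed sign, the largest of size 0.22, and the median of MF against C ran from −0.03 to 0.10.

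The animal numbers in the labels recur across groups and were not used as pairs in the main fit. Of 27 same-number pairs, 13 correlated above 0.1 (from −0.25 to 0.36), and 3 of 27 mice correlated best with their own number. Pairs of different numbers were not counted, so these values do not settle whether the numbers pair mice. With the number as a replicate block (fitted correlation 0.077), 5 members were called in MF against CR (Edem2 added) and 5 in CR against C. Signal over background and the 5 to 8 arrays per group limit what can be seen.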
